A study of Bos taurus with 12 samples.

Results

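NT5DC1 and COL10A1 are a pair of nested genes on cattle chromosome 9, COL10A1 lying wholly inside NT5DC1 in RefSeq's table for assembly ARS-UCD2.0. All probe sets that the platform annotation assigns to either symbol were taken, which gave 1 for NT5DC1 and 1 for COL10A1 among 24016 probe sets, controls left aside. They are 2 of 9155 genes named by the annotation. The choice of these genes rested on their difference between the zones compared here, so that difference is described and not tested. The annotation ties the COL10A1 probe set to a RefSeq transcript and the NT5DC1 probe set to a single expressed sequence tag. Where their probes lie within the nested genes was not analysed here.

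The cells were chondrocytes from the growth plate at the far end of the metacarpus, taken from male dairy cattle under 10 months of age and freed from the matrix by 4 hours of Collagenase P and parted by density. The lightest fraction was taken as hypertrophic zone (HZ) and the heaviest as reserve zone (RZ). RNA of 6 HZ and 6 RZ samples was hybridised to 12 one-colour arrays in 6 numbered pairs. No treatment or genetic change separated the groups, and the labels do not say whether a pair came from 1 animal or several, so the spread given here is that between these pairs.

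In the growth plate, chondrocytes leave a resting pool, divide in columns and then enlarge. Enlarged cells lay down collagen X, a short network-forming collagen whose chain is encoded by COL10A1, and the transcript is widely used as the marker of hypertrophy. NT5DC1 encodes a protein with a domain of the 5′-nucleotidase family, and no function of it in cartilage is taken as known here.

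The 7 measured chondrocyte markers had summed signals of 89532 to 148844 in HZ and 79552 to 157109 in RZ. COL9A1 was far dimmer than the others, with a median signal of 428. The others were bright in both zones, near the top of the signal range, where differences can be missed. The 7 markers gave log2 differences of 0.02 to 0.17 between the zones, and 0 of them passed (limma, adjusted p under 0.05). At an unadjusted p under 0.05 there were also 0, beside 22.2% of all probe sets. Of 12 hypertrophic zone markers other than COL10A1, 6 rose in HZ, beside 3.26% of all probe sets. Of 6 reserve zone markers 4 fell, beside 2.96%. These lists were chosen with earlier results of these data known, so the counts are a description and no test of the zone labels. Among all probe sets 782 were higher and 712 lower in HZ. Those counts ran from 334 (without pair 5) to 650 (without pair 2) and from 223 (without pair 5) to 895 (without pair 3) when 1 pair was left out. The deposited values of pairs 1 and 2 had steps of 0.0237 to 0.0318 and those of pairs 3 to 6 steps of 0.00884 to 0.011, so both sets of pairs are also given apart. The difference between them passed (limma interaction) for 0.00833% of probe sets.

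NT5DC1 was far higher in HZ on every pair, while the COL10A1 signals of both zones overlapped. Values are signals recovered from the deposited ratios, scaled so that each array has a median of 96.7. For NT5DC1 the HZ signals were 2322, 631, 1927, 1054, 1721 and 1765 in pairs 1 to 6. The RZ signals were 64.5, 121, 83.4, 48.9, 103 and 102. The groups did not overlap: the lowest HZ array, HZ-2, was 5.22 times the highest RZ array, RZ-2. Every HZ array stood above every RZ array in 1.68% of all probe sets, and since NT5DC1 was chosen on this contrast nothing is read from that share, nor from the 6.85% that were higher in HZ in all 6 pairs. Means were 1570 ± 617 in HZ and 87.1 ± 26.8 in RZ (SD, n = 6). In bulk samples such as these, fewer cells of a type and less RNA per cell cannot be told apart.

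For COL10A1 the HZ signals were 18565, 15530, 28359, 24717, 21574 and 20973 in pairs 1 to 6. The RZ signals were 15245, 16438, 20518, 24680, 17256 and 26743. The groups overlapped almost fully, with 1 HZ array (HZ-3) above all RZ arrays and 1 RZ array (RZ-1) below all HZ arrays. Means were 21620 ± 4513 in HZ and 20147 ± 4698 in RZ (SD, n = 6). The transcript that defines the hypertrophic zone was among the brightest on every array labelled RZ.

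**Figure D1:**
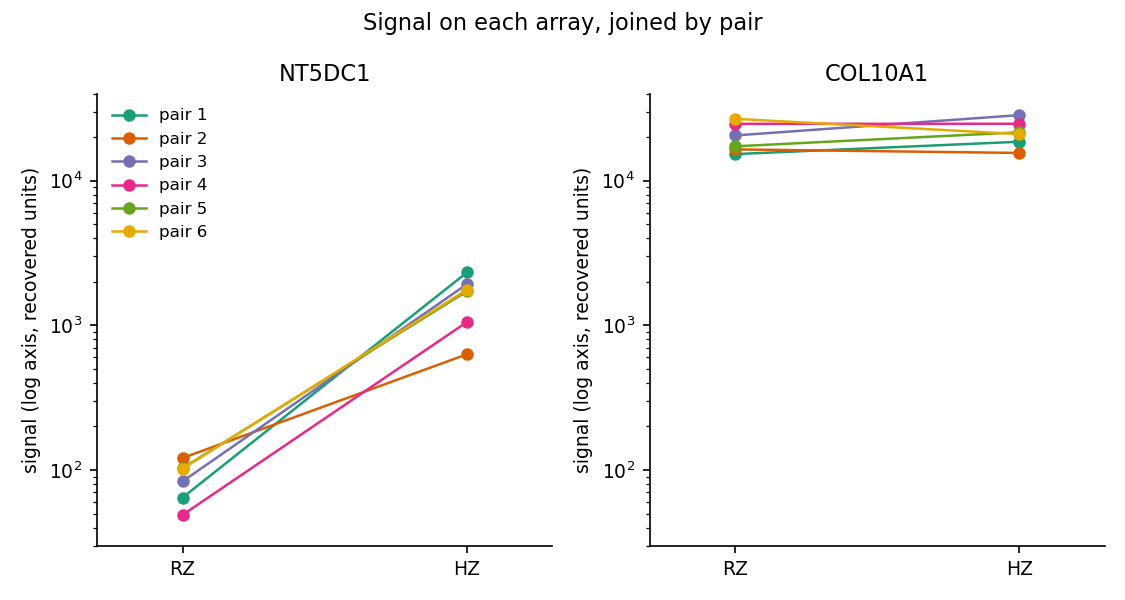
Signal of NT5DC1 (left) and COL10A1 (right) on each array, on a log axis, with RZ and HZ of a pair joined by a line. NT5DC1 lies between 48.9 and 121 in RZ and between 631 and 2322 in HZ, whereas the COL10A1 lines are nearly flat between 15245 and 28359.

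Within pairs, the plain quotient of the deposited NT5DC1 values, HZ over RZ, was 36 in pair 1, 5.22 in pair 2, 23.1 in pair 3, 21.6 in pair 4, 16.7 in pair 5 and 17.3 in pair 6. This quotient needs no recovered signal and no added constant. Its geometric mean was 17.3. On the scale of log2(signal + 16), which was used for all fits and understates changes of dim probe sets, the differences were 4.86, 2.24, 4.29, 4.04, 3.87 and 3.92. They averaged 3.87 ± 0.88 (SD over 6 pairs), with 3.55 over the first 2 pairs and 4.03 over the other 4. Pair 1 was highest and pair 2 lowest, so the widest gap between pairs lay inside the set of pairs 1 and 2.

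Ranked among all 24016 differences of its own pair, NT5DC1 was number 2 in pairs 1, 3, 4 and 6, number 3 in pair 5 and number 18 in pair 2. By the mean over pairs it was number 2. Pair 2 was smaller than the others for more than this gene. Over the other 1493 probe sets that passed, the slope of a pair's differences on the mean of the remaining pairs was 0.63 in pair 2, against 1.29 in pair 1 and 0.82 to 1.04 in the rest. NT5DC1 in pair 2 was 0.53 times its mean over the remaining pairs, and 1.32 times in pair 1. In pair 3 it was 1.13 times, where the slope was 0.82. The 12 hypertrophic zone markers had their smallest mean log2 difference in pair 2 too, at 0.50, against 0.75 to 0.92 in the other pairs.

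The position of NT5DC1 among the probe sets of an array also changed. In RZ it lay at percentile 35.9 to 54.9 of the array's signals, near the middle of the range, and in HZ at percentile 86.1 to 95.6. These positions describe hybridisation signals, and probe sets differ in brightness for equal amounts of RNA. Within zones the SD of NT5DC1 was 0.69 in HZ and 0.40 in RZ on the log2 scale. Without HZ-2, the lowest HZ array, the HZ value was 0.42, so part of the spread in HZ rests on that array. Without RZ-4, the lowest RZ array, the RZ value was 0.29. The SD of 0.69 in HZ was larger than that of 87% of probe sets, and the difference in spread between zones was not tested.

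COL10A1 differed by 0.28, -0.08, 0.47, 0.00, 0.32 and -0.35 in pairs 1 to 6, HZ minus RZ in log2 units. The mean was 0.11 ± 0.30 (SD over 6 pairs), a 1.08-fold level in HZ, with 4 pairs higher and 2 lower. Over the first 2 pairs it was 0.10, and over the other 4 it was 0.11. After quantile normalization the mean became -0.05, so the sign is not fixed. Over the same pairs NT5DC1 differed by 2.24 or more.

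**Figure D2:**
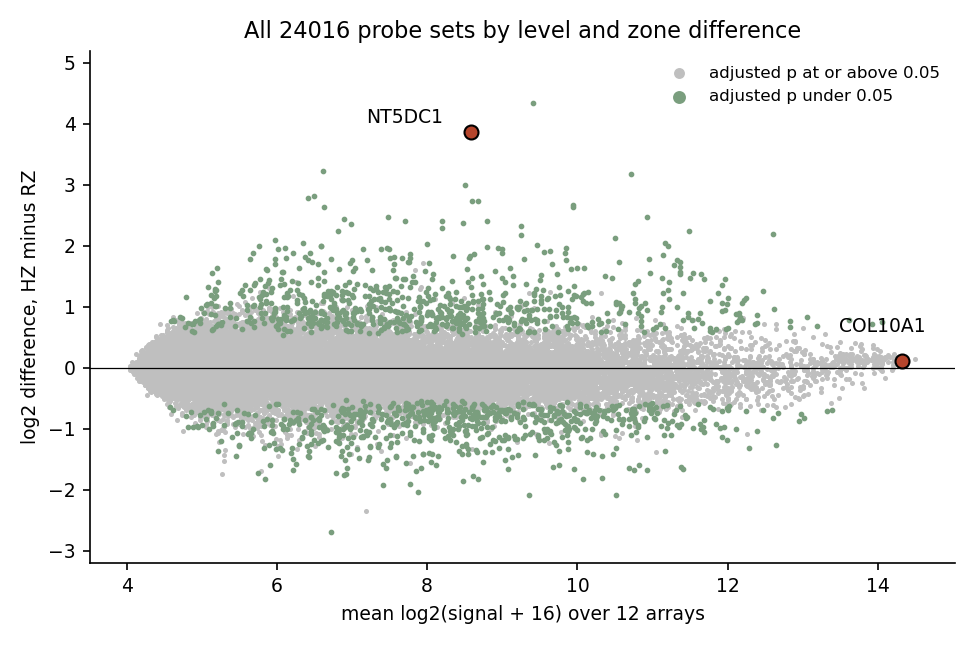
Each point is 1 of 24016 probe sets, with its mean log2(signal + 16) over 12 arrays on the x axis and its mean log2 difference, HZ minus RZ, on the y axis; green points had an adjusted p under 0.05 in limma. NT5DC1 lies near the upper edge at 3.87 and COL10A1 at the right end, at 0.11, where the cloud narrows.

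COL10A1 sat at the top of the measured range. It ranked between 3 and 15 of 24016 on every array and took 59.2% to 97% of the highest signal of its array. Before the arrays were scaled to each other its signal was 7405 to 8767 in pairs 1 and 2 and 25504 to 38091 in pairs 3 to 6. Near the top, zone differences were small in general. The 100 brightest probe sets had a median absolute log2 difference of 0.13, and 2 of them (2%) passed. The next 900 had 0.223 and 100 that passed (11.1%). Over all probe sets the median was 0.221 and 6.22% passed. The part of signal saturation in the COL10A1 result was not tested.

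The array-to-array changes of COL10A1 were shared by the other bright probe sets. The median log2 signal of the other 99 brightest differed between zones by 0.20, -0.03, 0.48, -0.02, 0.40 and -0.27 in pairs 1 to 6, close to the COL10A1 values pair by pair. Relative to that median, a comparison chosen after the data were seen, COL10A1 differed by 0.08, -0.05, -0.01, 0.02, -0.08 and -0.08, with a mean of -0.02 ± 0.06 (SD over 6 pairs). The spread over pairs thus shrank from 0.30 to 0.06. Across the 6 HZ arrays the correlation of COL10A1 with this median was 0.99 and across the 6 RZ arrays 0.97, given as a description because all points share the scaling of their array. For NT5DC1 the corresponding values were 0.44 and -0.38. Among those 99 probe sets, 39 had a smaller and 60 a larger mean difference than COL10A1.

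**Figure D3:**
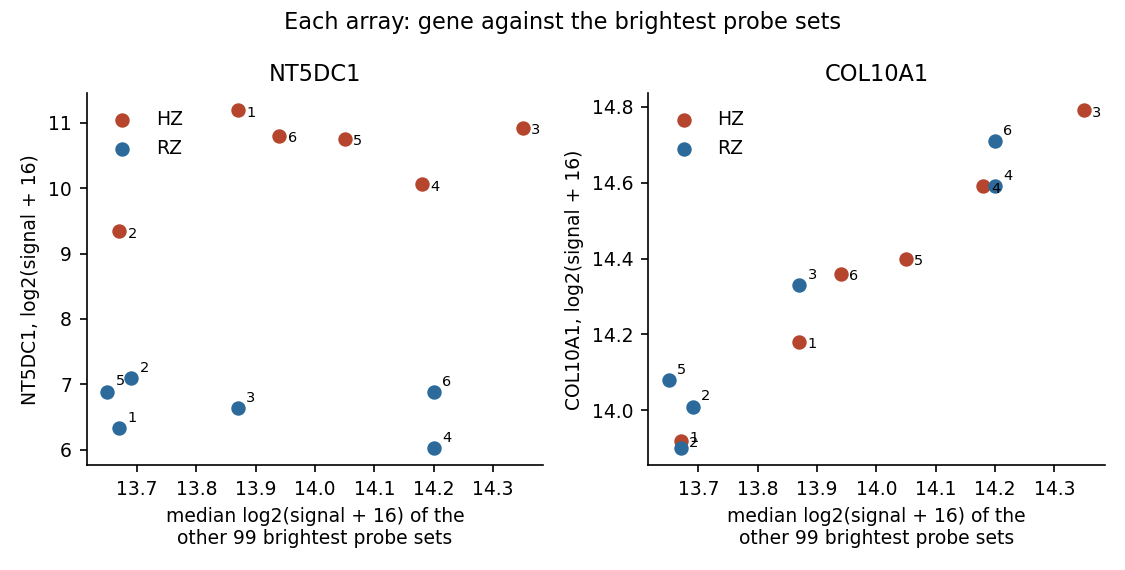
Each point is 1 array, labelled by pair number, with the median log2(signal + 16) of the other 99 brightest probe sets on the x axis and that of NT5DC1 (left) or COL10A1 (right) on the y axis. COL10A1 follows the bright probe sets along 1 line for both zones (correlation 0.99 in HZ and 0.97 in RZ), while NT5DC1 separates into HZ above 9 and RZ below 8 with no such line.

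The genes with the array pattern most like each member were picked by Pearson correlation of log2(signal + 16) over the 12 arrays, among 9154 other named genes. For NT5DC1 these were EPAS1, a transcription factor that acts in low oxygen (0.988), NPR3, the clearance receptor of natriuretic peptides (0.984), the collagen cross-linking enzyme LOX (0.976), the phosphatase relative MTMR10 (0.976) and the actin-binding tropomyosin TPM1 (0.975). All were higher in HZ, by log2 1.68, 1.16, 3.18, 1.43 and 1.36. Both zones enter these correlations, so they mostly reflect the zone difference, and NPR3 was dim, at 25.6 in HZ and 2.61 in RZ. After zone means were subtracted the leading genes changed. First came MSRA (0.917), which repairs oxidised methionine, and the transcription repressor GFI1 (0.884). The fatty acid receptor FFAR3 (0.874), the proteasome subunit PSMB5 (0.866) and the kinase GSK3B (0.865) followed. Their log2 differences between zones were 0.53, 1.43, 0.04, -0.11 and 2.01, in that order. Being the highest of 9154 correlations over 12 arrays, these values would be high by selection alone, and none was tested.

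For COL10A1 the closest genes were bright ones with small zone differences of their own. Over 12 arrays these were FN1, which encodes fibronectin (0.986), CCDC80 (0.983), the ribosomal protein gene RPLP0 (0.981), CDK5R1 (0.979) and the ribosomal protein gene RPL35 (0.979), with log2 differences of 0.10 to 0.17. After zone means were subtracted they were CCDC80 (0.988), FN1 (0.986), CDK5R1 (0.984), RPLP0 (0.980) and the actin gene ACTG1 (0.979). NT5DC1 came at rank 3884 in the first of these orders (0.221) and at rank 4453 in the second (0.181).

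The nested genes were also set against each other and against other measures within each zone, which the choice of genes did not use. Across the 6 HZ arrays NT5DC1 and COL10A1 had r = 0.45 and rho = 0.20 (exact two-sided permutation p = 0.351 and 0.714; adjusted p = 0.649 and 0.769 over 14 relations). Without HZ-2 and HZ-3, the arrays farthest from the median of COL10A1, r became -0.99 over the remaining arrays, so its sign rests on them. Across the 6 RZ arrays r was -0.22 and rho -0.20 (exact permutation p = 0.65 and 0.714; adjusted p = 0.758 and 0.769), and r was 0.12 without RZ-4 and RZ-6. Within pairs 3 to 6, r was -0.03 in HZ and -0.36 in RZ.

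None of the 14 relations passed by either coefficient, and the smallest unadjusted p, 0.0556, also missed 0.05. It belonged to COL10A1 and the mean of the hypertrophic zone markers in HZ, with r = 0.81 and rho = 0.83 (exact permutation p = 0.0556 and 0.0583; adjusted p = 0.649 and 0.635). Without HZ-1 and HZ-2 that r fell to 0.15, and in RZ it was 0.06. With NT5DC1 the same marker mean had r = 0.45 in HZ and 0.50 in RZ (exact permutation p = 0.371 and 0.308). The log2 ratio of actin signal at the 3′ end over the 5′ end, a sign of RNA quality, was 2.27 to 3.96 in HZ and 1.77 to 2.87 in RZ, lowest among HZ arrays on HZ-2. Its r was 0.28 with NT5DC1 and 0.65 with COL10A1 in HZ (exact permutation p = 0.578 and 0.175), and -0.14 and 0.73 in RZ (exact permutation p = 0.776 and 0.129). The same ratio for GAPDH was 1.46 on HZ-3 and 1.21 on HZ-4, and -0.20 to 0.50 on the other arrays. The part of RNA quality in the zone difference of NT5DC1 was not tested.

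The genes beside the locus gave a mixed picture, with the gene next to NT5DC1 on 1 side higher in HZ and DSE, farther out on that side, lower. Of the 8 protein-coding genes with a symbol on each side of NT5DC1 in the RefSeq order, 9 had a probe set, 13 probe sets in all. In limma with the pair as a block, 1 probe set rose and 1 fell, beside 3.26% and 2.96% of all probe sets. At an unadjusted p under 0.05 there were 7 of the 13 (53.8%), beside 22.2% of all probe sets. The median log2 difference of the 13 was 0.21, against -0.01 over all probe sets.

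TSPYL4, a gene of the family related to testis-specific protein Y, is the direct neighbour of NT5DC1 on 1 side. Its HZ signals were 1442, 958, 1648, 952, 959 and 1035 in pairs 1 to 6, and its RZ signals 502, 518, 577, 522, 562 and 396. Every HZ array was above every RZ array, as in 1.68% of all probe sets. TSPYL4 rose by 1.13 ± 0.16 (log2, SE; limma adjusted p = 0.0061), higher in 6 of 6 pairs, with 1.18 over the first 2 pairs and 1.11 over the other 4. It stayed past the threshold without any 1 pair (adjusted p = 0.0128 to 0.0247), and missed it in pairs 3 to 6 alone (adjusted p = 0.0532) and in pairs 1 and 2 alone (0.324).

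The next gene, TSPYL1, of the same family, gave 0.55 ± 0.17 (SE, limma adjusted p = 0.0882) at the brighter of 2 probe sets, higher in 5 of 6 pairs. Its other probe set gave 0.31 ± 0.18 (adjusted p = 0.372). DSE, the epimerase that makes dermatan sulphate, lies beyond TSPYL1. Its HZ signals were 141, 227, 254, 204, 201 and 139 and its RZ signals 197, 441, 378, 423, 356 and 346 in pairs 1 to 6. RZ-1 lay within the HZ range and the other RZ arrays above it. DSE fell by 0.82 on the log2 scale (SE 0.15, limma adjusted p = 0.0165), lower in 6 of 6 pairs. It missed the threshold without pair 4, 5 or 6 (adjusted p = 0.0576, 0.0543 and 0.0507, from a range of 0.0248 to 0.0576 over the fits with 1 pair left out).

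RWDD1, farther out on that side, gave -0.05 ± 0.18 (SE, adjusted p = 0.913). On the other side of the locus the direct neighbour, FRK, had no probe set, and none of the probe sets farther out passed. The heparan sulphate sulphotransferase HS3ST5 gave -0.04 ± 0.15 (adjusted p = 0.909). The 3 probe sets of the histone deacetylase HDAC2, all dim, gave -0.63, -0.26 and 0.21. The protein kinase C substrate MARCKS gave 0.63 ± 0.18 (adjusted p = 0.0671), higher in 6 of 6 pairs. The laminin chain gene LAMA4 gave 0.71 ± 0.19 at the brighter of 2 probe sets (adjusted p = 0.0538, and 0.0276 without pair 2, the lowest of 6 fits that reached 0.154) and 0.65 ± 0.21 at the other (adjusted p = 0.106). TUBE1, a member of the tubulin family, gave -0.42 ± 0.20 (adjusted p = 0.245).

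**Figure D4:**
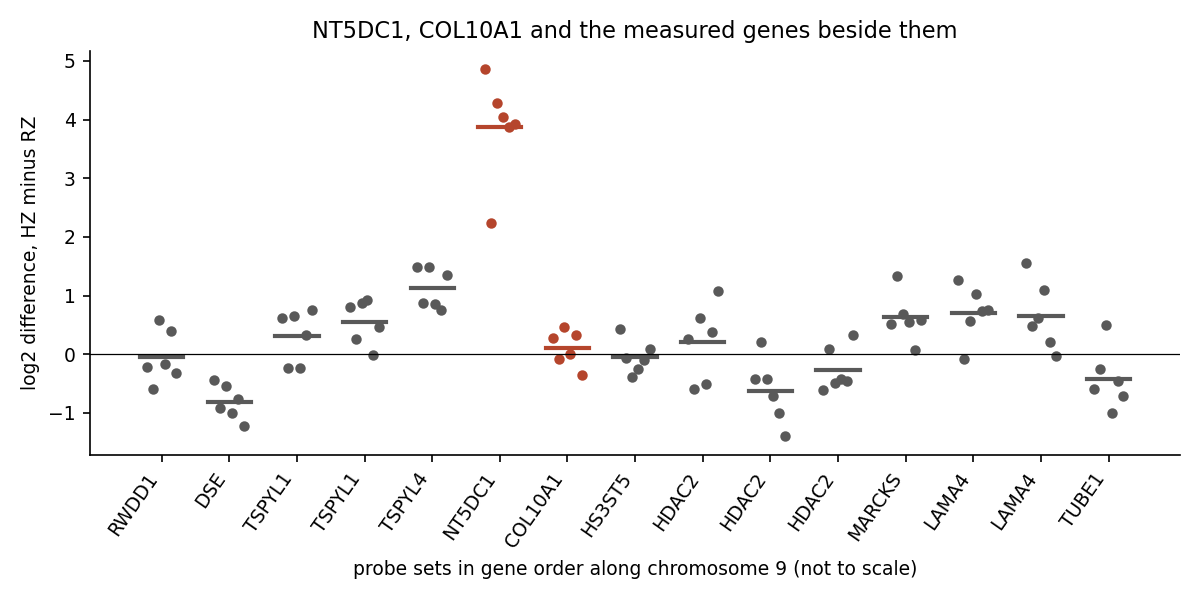
Log2 difference, HZ minus RZ, of each probe set of NT5DC1, COL10A1 (red) and the measured genes beside them (grey), in gene order along chromosome 9 and not to scale; points are pairs 1 to 6 from left to right and bars their mean. NT5DC1 stands at 3.87, its neighbour TSPYL4 at 1.13, and COL10A1 at 0.11.

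Of the 12 other listed genes of the 5′-nucleotidase family, 5 had a named probe set and 0 passed in limma. At an unadjusted p under 0.05 there was 1, beside 22.2% of all probe sets. Their median log2 difference was -0.07, against -0.01 over all probe sets. With 6.22% of all probe sets called, a count of 0 among 5 is near the background. NT5C2, a cytosolic nucleotidase of purine nucleotides, averaged 3964 ± 1382 over the 6 HZ arrays and 3337 ± 541 over the 6 RZ arrays (SD), which gave 0.21 ± 0.16 (log2, SE; limma adjusted p = 0.511). NT5E, the surface enzyme that makes adenosine from AMP, gave 0.29 ± 0.20 (adjusted p = 0.462), and -0.12 at its other probe set. NT5C3A, a pyrimidine nucleotidase, and NT5C gave -0.07 and -0.24. NT5C3B gave -0.44 ± 0.14 (adjusted p = 0.1), lower in 6 of 6 pairs. Its other probe sets gave -0.23 and -0.71.

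COL10A1 belongs to the proteins with a C1q domain, and 10 of 18 listed others had a named probe set. In that list 3 rose and 3 fell in HZ, beside 3.26% and 2.96% of all probe sets, with a median log2 difference of 0.16. Those that rose were C1QA, C1QB and C1QC, which encode the chains of complement C1q, made mainly by macrophages, and not matrix collagens. C1QB gave 1.64 ± 0.24 (SE, limma adjusted p = 0.00652) and C1QC 1.80 ± 0.29 (adjusted p = 0.00962), each higher in 6 of 6 pairs. C1QA gave 1.95 ± 0.39 (adjusted p = 0.0199, but 0.0666 without pair 4 and 0.053 without pair 6, with a low of 0.0196 over these fits). Without the pair as a block, C1QB, C1QC and C1QA missed the threshold (limma adjusted p = 0.0614, 0.0644 and 0.147). C1QTNF1, a secreted protein with a C1q domain, fell by 1.38 on the log2 scale (SE 0.15, adjusted p = 0.00184). C1QTNF5 fell by 1.19 (SE 0.20, adjusted p = 0.0114). EMILIN1, an elastic fibre glycoprotein, fell by 0.78 (SE 0.17, adjusted p = 0.0302), and when single pairs were left out it passed only without pair 2 (adjusted p = 0.0256; highest value 0.097). EMILIN2, C1QTNF7, ADIPOQ and MMRN1 gave -0.01, 0.26, 0.19 and 0.14 and did not pass.

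Among 13 measured genes of 30 listed as transcription regulators of COL10A1, 1 rose and 0 fell in limma (median 0.04). That share, 7.69%, is near the 6.22% of all probe sets. At an unadjusted p under 0.05 there were 8 of the 13, beside 22.2% of all probe sets. MEF2C, an activator of hypertrophic genes, went from 43.4 ± 26.3 in RZ to 114 ± 49.2 in HZ (SD over 6 arrays), a rise of 1.14 ± 0.20 (log2, SE; limma adjusted p = 0.0114) in 6 of 6 pairs. Without the pair as a block its adjusted p was 0.0537. Its relative MEF2A gave -0.57 ± 0.19 (adjusted p = 0.112, with 0.0436 without pair 3 and up to 0.272 in the other fits with a pair left out). The stress factor ATF4 gave -0.34 ± 0.14 (adjusted p = 0.175), and the AP-1 subunits FOS and JUNB gave -0.06 and -0.13. The AP-1 subunits JUN, JUND and FOSL2 gave 0.55, 0.52 and 0.38 (adjusted p = 0.224, 0.222 and 0.547). DLX5, a homeobox activator, gave 0.55 ± 0.15 (adjusted p = 0.0573), higher in 6 of 6 pairs. RUNX2 and SOX9 were not analysed here.

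Of the collagen X receptors, binding partners and proteases, 10 of 14 were measured, and 1 rose and 2 fell (median 0.07), beside 3.26% and 2.96% of all probe sets. The collagenase MMP13 rose by 2.04 ± 0.23 (log2, SE; limma adjusted p = 0.00205), from 1186 ± 430 in RZ to 4728 ± 864 in HZ (SD, n = 6). The gelatinase MMP2 fell by 1.66 (SE 0.33, adjusted p = 0.0205) and the collagen-binding integrin subunit ITGA10 by 1.06 (SE 0.23, adjusted p = 0.026). MMP2 missed the threshold without pair 4, 5 or 6 (highest adjusted p = 0.0591) and ITGA10 without pair 1, 4, 5 or 6 (highest 0.0777). ANXA5, an annexin that binds collagens II and X, gave 0.03, and its other probe sets gave -0.27, -0.18 and -0.32. ANXA2, ANXA6 and the integrin subunit ITGB1 gave 0.07, 0.07 and 0.29.

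Among the other listed markers of the same zone, 6 of 12 passed. MMP13 and IHH, the hedgehog ligand of prehypertrophic cells, rose by 2.04 and 1.54 ± 0.20 (log2, SE; limma adjusted p = 0.0045). PTH1R, the receptor for PTHrP, rose by 0.92 ± 0.15 (adjusted p = 0.0106), and SCIN, which severs actin filaments, by 0.84 ± 0.15 (adjusted p = 0.0138). ALPL, the alkaline phosphatase of mineralising cartilage, rose by 0.73 ± 0.16 (adjusted p = 0.029) but when single pairs were left out it passed only without pair 3 (adjusted p = 0.0336; highest value 0.0907). The brightest of the remaining markers gave small differences. SPP1, at 18261 ± 1840 over the HZ arrays and 14727 ± 1794 over the RZ arrays (SD, n = 6), gave 0.31 ± 0.14 (adjusted p = 0.215), and IBSP, at 11710 ± 1835 and 10723 ± 2028, gave 0.14 ± 0.17 (adjusted p = 0.715), while a dimmer probe set of IBSP gave 2.20. VEGFA and S100A1 gave 0.32 and 0.27.

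On the reserve zone list, SFRP5, a WNT inhibitor, fell by 1.12 (log2, SE 0.16; limma adjusted p = 0.00569) and clusterin (CLU) by 0.86 (SE 0.15, adjusted p = 0.012). APOE fell by 0.88 (adjusted p = 0.0218), and missed the threshold without pair 1, 4 or 6 (highest adjusted p = 0.0739). PTHLH, the PTHrP gene, fell by 0.75 (adjusted p = 0.0275), but when single pairs were left out it passed only without pair 3 (adjusted p = 0.027; highest value 0.0897). GDF5 and NT5E gave 0.19 and 0.29, and the other probe set of NT5E gave -0.12.

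**Figure D5:**
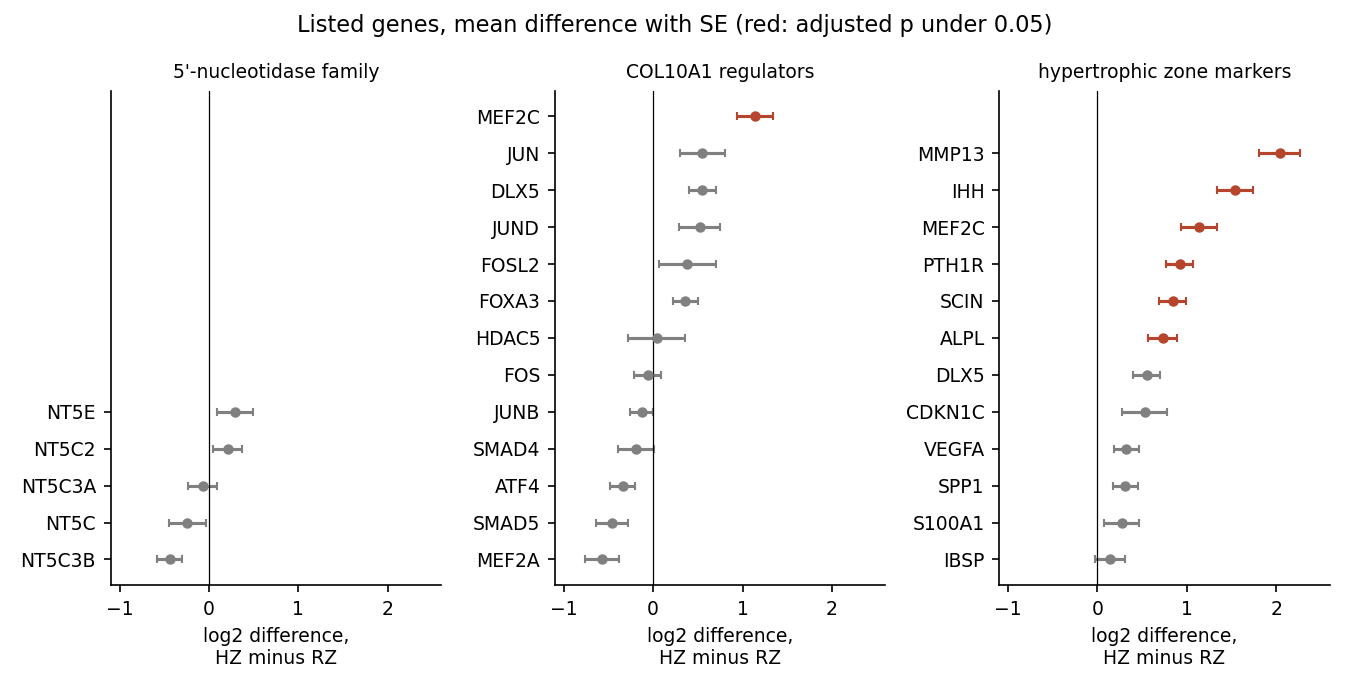
Log2 difference, HZ minus RZ, with its SE from limma, for measured genes of the 5′-nucleotidase family (left), regulators of COL10A1 (middle) and hypertrophic zone markers (right); red points had an adjusted p under 0.05. None of the 5 NT5DC1 relatives, 1 of 13 regulators (MEF2C) and 6 of 12 markers are red, and none comes near the 3.87 of NT5DC1.

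In lists of 3 to 7 markers of other cell types, 14.3% to 66.7% passed, beside a background of 6.22%. Each of these shares rests on 1 or 2 genes. Of 3 osteoclast markers, CTSK and ACP5 rose by 1.46 ± 0.21 and 1.21 ± 0.29 (log2, SE; limma adjusted p = 0.00625 and 0.039). CTSK passed without any 1 pair, but ACP5 missed the threshold without pair 1, 3, 4 or 5 (highest adjusted p = 0.113). The other probe sets of ACP5 gave 0.79 and 0.49. MMP9 gave 0.97 (adjusted p = 0.248), higher in 3 of 6 pairs. The summed signal of the 3 was 7104 to 9958 in HZ and 2272 to 5645 in RZ. Most of it came from CTSK, with means of 6683 in HZ and 2522 in RZ. Those of ACP5 were 1734 and 761, and those of MMP9 89.6 and 60.8. Of 7 blood and marrow markers 1, PTPRC, fell, with sums over the list of 798 to 1367 in HZ and 1058 to 2237 in RZ. Its other probe sets gave -0.24 and 0.19. CD14 gave -0.81 (adjusted p = 0.103), and -1.02 at its other probe set, while CD68 gave 0.14. HBB, HBA, CD3E and CD79A gave -0.49, -0.36, -0.39 and -0.03 and did not pass. Of 5 endothelial markers PECAM1 fell (185 to 519 in HZ, 472 to 712 in RZ), and of 6 fibroblast and perichondrium markers PDGFRA fell (3334 to 5574 and 4968 to 11445), although its other probe sets gave 0.09 and 0.14. Of 5 osteoblast markers DMP1 rose, by 1.34, while BGLAP, COL1A1, COL1A2 and SOST gave -0.99, -1.05, -1.12 and -0.56 and did not pass. The other probe sets of COL1A1, COL1A2 and SOST gave 0.07, -1.07 and -0.09. The median of the osteoblast list was -0.99, with 4 of 5 at an unadjusted p under 0.05 (limma), beside 22.2% of all probe sets. Its sums were 1366 to 4805 in HZ and 1487 to 17917 in RZ. When single pairs were left out, PTPRC passed only without pair 5, PECAM1 only without pair 3, DMP1 only without pair 2, and PDGFRA without pair 2, 3 or 5 (highest adjusted p = 0.133, 0.088, 0.119 and 0.0767). No marker was at 0, but VWF, CD79A and POSTN had median signals of 6.34, 4.81 and 3.22, below the 7.34 that the deposited values use as the fixed divisor of dim probe sets. The part of other cell types in the NT5DC1 difference was not tested.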

How the data were processed

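The deposited values are linear ratios, which the authors had scaled before they deposited them: per the values themselves, a probe set's signal over its median across the 12 arrays (21901 probe sets, 90.8%), or over 1 fixed value (2227 dim ones). Details of scanning, probe summary and normalization were not given in the sources used here. Array medians of the deposited ratio were 0.934 to 1.04. Signals were recovered from the step between values, assuming 0.1 units a step, for all 24128 probe sets (in 4000 simulated ones 99.85% were solved and 99.97% of those right), in place of the intensities the plan had assumed.

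Zones were compared on log2(signal + 16) of 24016 probe sets with limma 3.58.1 in R 4.3.3 (pair as a fixed block, Benjamini-Hochberg over all probe sets, threshold 0.05), tested on simulated data. The series' description states the pairing. Deviations from the zone means correlated at 0.124 to 0.447 between same-numbered arrays. Arrays of unlike number were not compared, so these values do not test the pairing. Precision is limited by there being 6 arrays a zone.

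Of several probe sets for a gene, the one with the highest mean stood for it. Symbols came from the platform table (13292 probe sets with 1 symbol, 86 with several, 10638 with none; 13263 matched RefSeq by Entrez identifier). Named genes were both members, the measured neighbours, of each list those past the threshold (up to 8) and up to 4 others by highest signal, and the 5 most alike. DLX5, JUN, JUND, FOSL2, NT5C3B and the other cell type markers named were added after their values were seen. Members and lists were chosen with earlier results of these data known. Promoter motifs, which had been planned, were not analysed here. Alternatives were another constant, the deposited ratios, other normalizations, no block, no dim probe sets and fewer pairs.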

Additional observations from a re-analysis of the deposited data

Results flagged for a closer look

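Arrays lying far from the other 5 of their zone, by Dixon's ratio of gap to range above its 95% limit, were found in 5 of 140 groups of 6 arrays screened (3.57%), and chance flags about 5%. Neither NT5DC1 nor COL10A1 was among them. TSPYL4 was 396 on RZ-6, against 502 to 577 on the other RZ arrays, and DSE was 197 on RZ-1, against 346 to 441. HS3ST5 was 85.6 on RZ-4, against 41.7 to 51.7. NT5C2 was 6711 on HZ-3, against 3049 to 3980. NPR3 was 7.35 on RZ-2, against 0.79 to 2.85, all dim. The difference between pairs 1 and 2 and pairs 3 to 6 passed for none of 68 named probe sets of other genes (limma interaction term, past the threshold for 2 of 24016 probe sets).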

How the results depend on the processing

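NT5DC1 kept its direction in every alternative, between 3.34 (64 added) and 4.20 (without pair 2), and COL10A1 lay between -0.05 (quantile normalization) and 0.20 (without pair 6). Probe sets higher and lower in HZ numbered 368 and 215 with 1 added, 315 and 163 from the deposited ratios, 258 and 78 in pairs 3 to 6, and 0 and 0 in pairs 1 and 2 (limma; 2930 at an unadjusted p under 0.05). Ignoring the pairing (no replicate block) gave 505 and 326. With 64 added 1017 were higher and 1120 lower, and with dim probe sets left out 1070 and 1243. Leaving out 1 pair gave 334 to 650 and 223 to 895. Neighbour probe sets past the threshold numbered 4 with 64 added, 1 from deposited ratios and 6 without dim probe sets. Counts over all probe sets were also larger with 64 added and without dim ones. Neighbour probe sets that passed numbered 1 to 3 without 1 pair and 0 in either subset of pairs. At an unadjusted p under 0.05 (limma), 3 of the 13 (23.1%) were found in pairs 1 and 2, beside 12.2% of all probe sets. In pairs 3 to 6 there were 6 (46.2%), beside 16.2%. Of 27 other named probe sets that passed, 11 were lost without the block, 7 with 1 added, 10 from deposited ratios, 14 in pairs 3 to 6, all 27 in pairs 1 and 2, and 1 to 8 without 1 pair, none reversing. MMRN1, which did not pass, turned to -0.34 in the deposited ratios. The causes were not tested. Of the 14 correlations, none passed under any scaling tried. Differences near the top of the signal range can be missed, and for dim probe sets the constant sets their size.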
